A study of Drosophila melanogaster with 7 samples.

Results

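The gap genes were described here by 7 of the 17699 genes in a table of RNA sequencing counts from *Drosophila* embryos. They were chosen by their FlyBase symbols, as the trunk gap genes *hb* (hunchback), *Kr* (Krüppel), *kni* (knirps), *knrl* (knirps-like) and *gt* (giant), and the terminal gap genes *tll* (tailless) and *hkb* (huckebein). Embryos were compared at stage 5, the blastoderm stage at which the zygotic genome has become active, between controls (Bloomington stock 36303, 4 libraries) and HP1-KD embryos (3 libraries). In HP1-KD embryos, heterochromatin protein 1 was depleted by a hairpin (Bloomington stock 33400) that a Gal4 driver (stock 7063) switched on in the germ line of the mother, and the females carrying both were crossed to their siblings. Embryos were staged by hand under oil and put singly into Trizol, and libraries were made with a stranded kit for total RNA.

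Several limits of the groups as models come from the labels and the methods of the study. The knockdown was partial, only a minority of HP1-KD embryos reached genome activation, and only those that did were collected. The sources used here do not state which cross gave the control embryos, or whether a library holds 1 embryo or a pool. One label of the HP1-KD libraries calls their tissue wild type, but the knockdown is given in the title and the genotype, on which the grouping here rests. Nothing in the labels says that replicates came from separate collections, so the p-values measure the spread between these libraries only.

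Gap genes are the first tier of zygotic segmentation genes. Their products are transcription factors that read the maternal gradients of Bicoid and Caudal along the body axis, or, at the poles, the Torso signal. By repressing each other they settle into broad neighbouring domains, and they place the stripes of the pair-rule genes. *hb* encodes a zinc finger protein of the anterior, and its RNA is both laid down by the mother and made by the zygote. *Kr* encodes a zinc finger repressor of the central trunk, *kni* and its paralogue *knrl* encode proteins of the nuclear receptor family, and *gt* encodes a bZIP repressor. *tll*, an orphan nuclear receptor, and *hkb*, a zinc finger protein related to Sp factors, are switched on at both poles downstream of Torso.

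All 7 are protein-coding genes of the dm6 genome. On chromosome arm 3R lie *hb* (FBgn0001180, 8690980 to 8697822, minus strand), *tll* (FBgn0003720, 30852315 to 30854400, plus strand) and *hkb* (FBgn0261434, 4345015 to 4346646, minus strand). *Kr* (FBgn0001325, 25226611 to 25231394, plus strand) is on 2R, within the gene *CG9380* on the other strand but without overlap of exons. The paralogues *kni* (FBgn0001320, 20692330 to 20695378) and *knrl* (FBgn0001323, 20597141 to 20620659) share the minus strand of 3L with 71670 nt between them, and *gt* (FBgn0001150) lies on X from 2427113 to 2428967 on the minus strand. Their exons cover between 1567 nt (*hkb*) and 4411 nt (*Kr*). The other 6 genes overlap no annotated gene.

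Library totals ranged from 8678092 to 16983585.5 counts. Ribosomal RNA took 15.3 to 47.2% of the counts in control libraries, 37.3% in HP1-KD replicate 2, and 80.7% and 79.1% in HP1-KD replicates 1 and 3, so that 7324415.5 to 11775952 counts per control library and 3272009.5 to 5443432 per HP1-KD library lay outside it. TMM scaling factors ran from 0.38 to 1.73. Transcripts of *Su(var)2-5*, the gene of HP1 that the hairpin targets, were at 38.5% of control in HP1-KD embryos, with no overlap between the groups (log2 fold change −1.38, edgeR adjusted p = 0.00231). Control replicate 3 stood apart from the other controls in several maternal, cellularization and pair-rule genes, and HP1-KD replicate 1 carried yolk protein RNAs. Gap gene values without these libraries are given below, as are list values that moved without control replicate 3.

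Levels are given in CPM, each gene's count relative to the library total as scaled by edgeR's TMM factors. A gene was called changed at a Benjamini-Hochberg adjusted p under 0.05 in edgeR's quasi-likelihood test, with adjustment over the 8008 genes tested. No gap gene was called, against 8.59% of all tested genes called in either direction and 4.9% called lower in HP1-KD. Of the 7, 6 had a negative log2 fold change, and the median was −0.56 against −0.03 over all genes tested. An unadjusted p under 0.05 with a lower level was found for 5 gap genes (15.3% of all genes). For 4 of them (*Kr*, *kni*, *gt* and *hkb*) every HP1-KD library lay below every control library, as for 15.1% of all genes. Other tools placed the genes on either side of the threshold. DESeq2's Wald test called 4 gap genes lower (9.8% of all genes) and limma-voom called 1 (4.1%). In whole embryos, fewer nuclei that express a gene and less RNA per nucleus cannot be told apart.

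**Figure D1:**
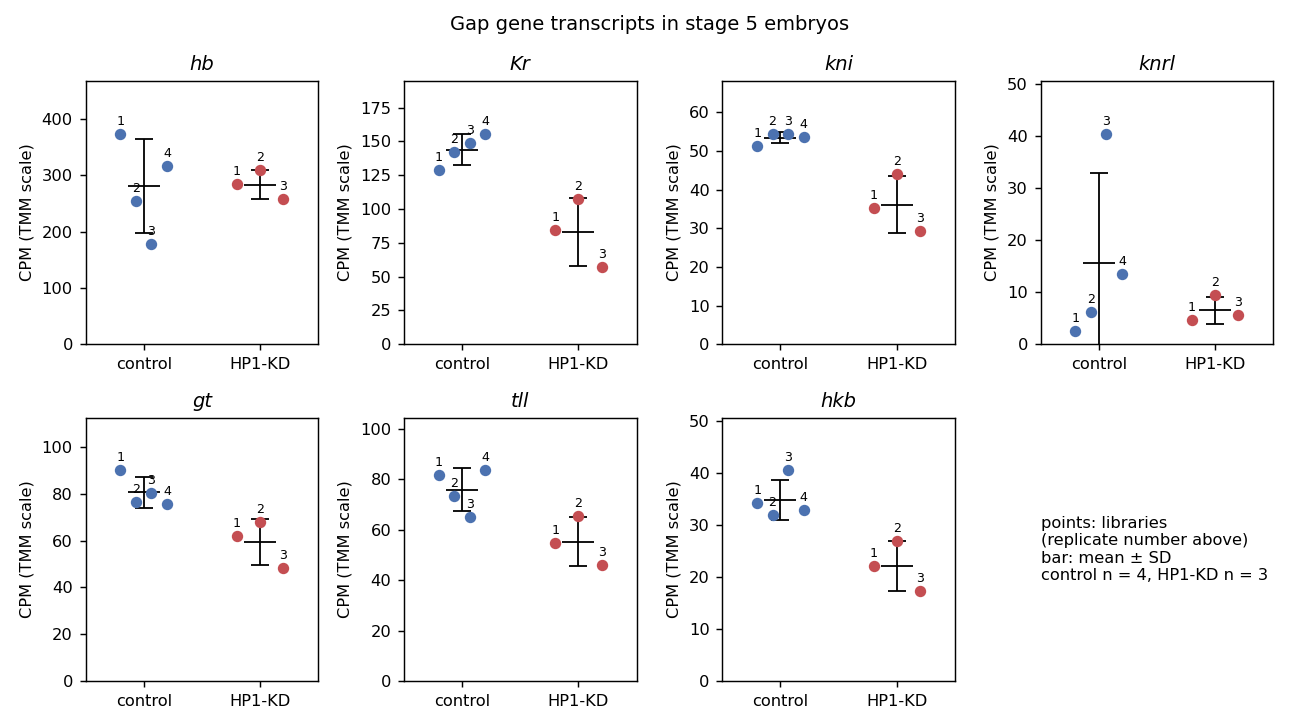
CPM on the TMM scale (vertical axes from 0, a separate scale for each gene) in 4 control libraries (blue) and 3 HP1-KD libraries (red), with replicate numbers above the points and bars for the mean ± SD; the SD bar of *knrl* in controls runs below 0 and is not drawn there. *Kr*, *kni*, *gt* and *hkb* show no overlap between the groups, *hb* lies at the same mean in both, and HP1-KD replicate 2 is the highest HP1-KD library in all 7 panels.

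Among the trunk genes, *hb* transcripts did not differ by a measurable amount. Control replicates 1 to 4 had 374, 253, 179 and 317 CPM, and HP1-KD replicates 1 to 3 had 284, 308 and 258 CPM. The 3 HP1-KD libraries all lay inside the range of the controls, whose highest library was 2.09 times the lowest. Its log2 fold change was 0.01 ± 0.23 (SE), with a 95% interval of −0.52 to 0.55 (edgeR adjusted p = 0.972). Any difference inside this interval is compatible with these libraries. Maternal and zygotic *hb* transcripts were counted together, since the table gives 1 value per gene. The sign was not stable. The log2 fold change turned to −0.16 without control replicate 3, the lowest library (edgeR adjusted p = 0.496), to −0.039 without control replicate 2 and to −0.048 without HP1-KD replicate 2.

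*Kr* had the largest difference among the genes whose groups did not overlap. It was measured at 129, 142, 149 and 156 CPM in the control libraries and at 84.5, 107 and 57.1 CPM in the HP1-KD libraries. The highest HP1-KD library thus lay under the lowest control, and the HP1-KD mean was 57.7% of the control mean. On the log2 scale the fold change was −0.79 ± 0.20, with an interval of −1.26 to −0.32 (edgeR adjusted p = 0.0515, just above the threshold). The adjusted p was 0.00522 with DESeq2 and 0.0496 with limma-voom. With each library left out in turn, *Kr* was called in 3 of 7 fits, at adjusted p between 0.0377 and 0.162.

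For *kni* the controls were the tightest of all 7 genes, at 51.3, 54.4, 54.5 and 53.6 CPM, with a coefficient of variation of 2.78%. HP1-KD libraries had 35.2, 44.1 and 29.2 CPM, all below the controls and more widely spread (20.7%). edgeR gave a log2 fold change of −0.56 ± 0.15 (interval −0.90 to −0.22, edgeR adjusted p = 0.0569, DESeq2 adjusted p = 0.00693). Leaving out libraries in turn gave a call in 2 of 7 fits, without control replicate 3 (0.0381) and without HP1-KD replicate 2 (0.0497).

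Its paralogue *knrl* behaved otherwise. Control libraries held 2.51, 6.24, 40.4 and 13.5 CPM, a 16.1-fold range, and HP1-KD libraries held 4.55, 9.46 and 5.52 CPM. The HP1-KD values lay among those of control replicates 1, 2 and 4, and control replicate 3 alone stood far above. The log2 fold change of −1.25 ± 0.85 (interval −3.22 to 0.71, edgeR adjusted p = 0.351) became −0.18 without control replicate 3 (adjusted p = 0.843). The depth was low here, with 29.5 to 103 estimated counts in the HP1-KD libraries and 36 in control replicate 1.

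*gt* was at 90.1, 76.7, 80.5 and 75.5 CPM in controls and at 62.0, 67.9 and 48.5 CPM in HP1-KD embryos. The groups did not overlap, but the gap between the closest libraries was small, at 67.9 against 75.5 CPM. Its log2 fold change was −0.44 ± 0.14 (interval −0.76 to −0.12, edgeR adjusted p = 0.0886), and DESeq2 gave an adjusted p of 0.0347. No fit with a library left out called *gt*.

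The terminal genes were both lower on average. *tll* had 81.8, 73.3, 65.0 and 83.5 CPM in controls and 54.6, 65.5 and 45.8 CPM in HP1-KD libraries. Control replicate 3 and HP1-KD replicate 2 overlapped by less than 1 CPM, and the other libraries were apart. The log2 fold change was −0.45 ± 0.15 (interval −0.81 to −0.10, edgeR adjusted p = 0.101). Without control replicate 3 it was −0.53 and called (adjusted p = 0.0352).

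*hkb* had 34.2, 32.0, 40.5 and 32.9 CPM in controls and 22.1, 26.9 and 17.4 CPM in HP1-KD libraries, with no overlap. Its HP1-KD mean was 63.4% of the control mean, next to 72.9% for *tll*. In edgeR the log2 fold change was −0.65 ± 0.18 (interval −1.06 to −0.25, edgeR adjusted p = 0.0595, DESeq2 adjusted p = 0.00864). Of the fits with a library left out, 1 of 7 called it, the fit without control replicate 3 (0.0436).

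Leaving out control replicate 3 therefore brought *Kr*, *kni*, *tll* and *hkb* past the threshold, 4 of the 7 gap genes, while 8.29% of all genes tested were then called lower. Without control replicate 3 and HP1-KD replicate 1 together, a choice made after the data were seen, no gap gene was called, at adjusted p between 0.104 and 0.982. The log2 fold change of *knrl* was then 0.03 and that of *Kr* −0.78.

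**Figure D2:**
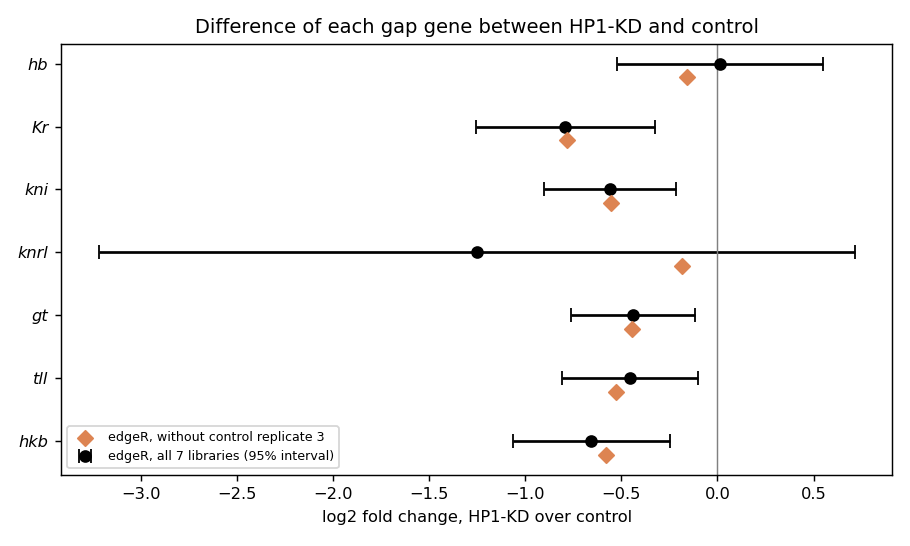
Log2 fold change of each gap gene, HP1-KD over control, with 95% intervals from edgeR over all 7 libraries (black) and the value without control replicate 3 (orange diamonds); the vertical line marks no difference. The intervals of *hb* and *knrl* span 0, and leaving out control replicate 3 moves *knrl* from −1.25 to −0.18 and *hb* from 0.01 to −0.16 while the diamonds of the other 5 genes lie close to their points.

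The HP1-KD libraries kept the same order in most genes. HP1-KD replicate 2 was the highest of the 3 in 7 of 7 gap genes, and HP1-KD replicate 3 was the lowest in 6 of 7, the exception being *knrl*. Replicate 2 was also the library with the smallest share of ribosomal RNA of the 3 and the most counts outside it. The part of ribosomal RNA in this order was not tested. Leaving the ribosomal RNA genes out before scaling gave log2 fold changes of −0.80 for *Kr* (edgeR adjusted p = 0.0481), −0.57 for *kni* and 0.01 for *hb*. Scaling by total count alone put the median gene at −1.15, and relative to it *Kr* was at −0.62, *kni* at −0.42, *gt* and *tll* at −0.31, *hkb* at −0.51 and *hb* at 0.15.

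Levels of different genes can be compared per length of exon. In controls the order was *hb* (73.2 ± 21.9 CPM per kb, mean ± SD), *gt* (45.3 ± 3.71), *tll* (38.6 ± 4.34), *Kr* (32.6 ± 2.61), *kni* (24.1 ± 0.672), *hkb* (22.3 ± 2.46) and *knrl* (4.01 ± 4.38). Neighbours in this order were apart in their ranges in only 2 cases, *Kr* over *kni* and *hkb* over *knrl*. The ranges of *hb* and *gt* overlapped, although *hb* was the higher of the pair within each of the 4 libraries. HP1-KD embryos showed the same order of means, with *hb* at 73.9 ± 6.62 CPM per kb, *gt* at 33.4 ± 5.58, *tll* at 28.1 ± 5.00, *Kr* at 18.8 ± 5.72, *kni* at 16.3 ± 3.38, *hkb* at 14.1 ± 3.05 and *knrl* at 1.67 ± 0.666. There *hb* was clear of *gt*, and *Kr* was no longer apart from *kni*, being the higher in 2 of 3 libraries.

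**Figure D3:**
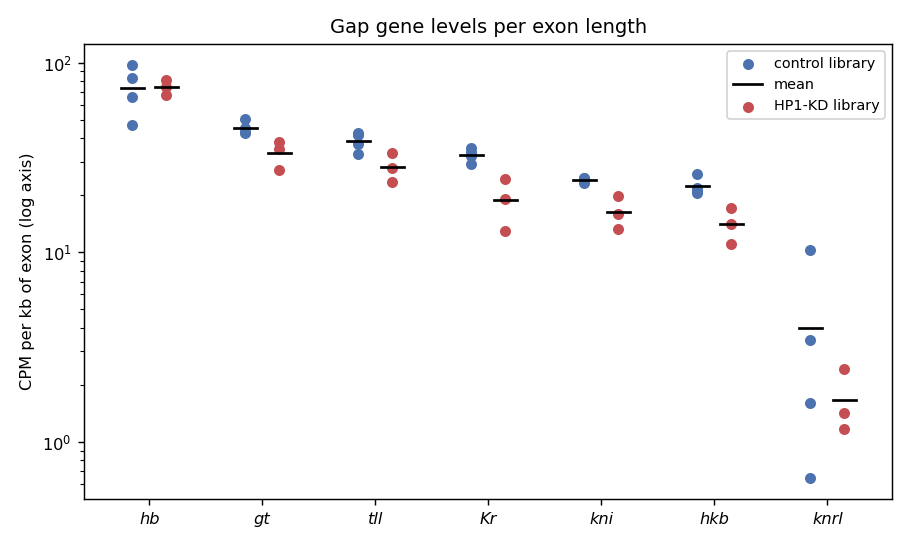
CPM per kb of exon (log axis) for each gap gene in every control (blue) and HP1-KD (red) library, with a line at each mean, in the order of the control means. *hb* is highest and *knrl* lowest in both groups, and the controls of *knrl* spread from 0.643 to 10.3 CPM per kb.

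Ratios of a pair of gap genes within a library do not depend on scaling between libraries, and 3 were compared by exact two-sided permutation tests, for which the smallest possible p is 0.0571. The log2 ratio of *Kr* over *hb*, a central against an anterior gene, was −1.54, −0.83, −0.27 and −1.03 in controls and −1.75, −1.52 and −2.17 in HP1-KD libraries. The groups met only at control replicate 1 and HP1-KD replicate 2, and the means differed by −0.90 (exact permutation p = 0.114, adjusted over 3 ratios 0.343). *tll* over *hkb* was 1.26, 1.20, 0.68 and 1.34 in controls and 1.31, 1.28 and 1.40 in HP1-KD libraries. Control replicate 3 was the low value, and the means differed by 0.21 (exact permutation p = 0.229, adjusted 0.343), and by 0.064 without that library. *kni* over *knrl* ran from 0.43 in control replicate 3 to 4.35 in control replicate 1, while HP1-KD libraries lay between 2.22 and 2.95. The paralogues' ratio thus varied far more among controls than between the groups, whose means differed by 0.05 (exact permutation p = 0.971, adjusted 0.971).

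Regulators that act on gap genes were taken as a list of 13, of which 12 were matched to the table and 10 were tested. It holds the maternal gradient genes *bcd* and *cad*, the Torso receptor gene *tor* and the early activators *zld* and *Trl*. None was called by edgeR, 2 of 10 had a negative log2 fold change, and their median was 0.31. Without control replicate 3, 5 of 10 were negative, the median was 0.084, and *Trl* (GAGA factor) was called lower (log2 fold change −0.35, edgeR adjusted p = 0.0346). With all libraries, 3 had an unadjusted p under 0.05 (28.8% of all genes, either direction), DESeq2 called 2 (18.6%) and limma-voom called 0 (6.99%). The 2 went in opposite directions, *Trl* lower (log2 fold change −0.40, DESeq2 adjusted p = 0.00588) and *cic* higher (0.43, DESeq2 adjusted p = 0.0405). *zld*, which encodes Zelda, the pioneer factor of genome activation, had the highest mean over all 7 libraries, with 349, 229, 436 and 106 CPM in controls and 378, 421 and 434 CPM in HP1-KD libraries. The groups overlapped (log2 fold change 0.55 ± 0.40, edgeR adjusted p = 0.380, and 0.85 without control replicate 3). In controls alone *Stat92E*, with a mean of 289 CPM, was level with it (280.2 CPM). *bcd* RNA was at 22.9 CPM in control replicate 3 and at 61.6 to 130.1 CPM in the other controls, and HP1-KD libraries held 100.1 to 108 CPM. Its log2 fold change was 0.51, and 0.20 without control replicate 3. *cad* had 139, 75.1, 38.6 and 73.8 CPM in controls and 148, 144 and 155 CPM in HP1-KD libraries. The log2 fold change of *cad* was 0.87 ± 0.36 (edgeR adjusted p = 0.156), and 0.63 without control replicate 3 (edgeR adjusted p = 0.0949).

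Corepressors with which gap proteins work (*CtBP*, *gro*, *HDAC1*, *Mi-2* and *Gug*) gave 5 tested genes and no call by edgeR, DESeq2 or limma-voom. Of the 5, 2 had an unadjusted p under 0.05 (28.8% of all genes). The median log2 fold change of the 5 corepressors was −0.05, and 0.023 without control replicate 3. *Mi-2*, a chromatin remodeller, was the most abundant of them, at 439 ± 64.0 CPM in controls (n = 4) and 431 ± 2.53 CPM in HP1-KD embryos (n = 3).

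Of the pair-rule genes, which gap proteins regulate directly or in turn, 9 of 9 were tested and 9 had a negative log2 fold change, with a median of −0.72. Without control replicate 3, 7 of 9 were negative, the exceptions being *run* and *opa*, and the median was −0.38. By edgeR, 2 were called lower (4.9% of all genes were) and none higher, *hry* (hairy, an HES repressor) and *odd* (odd skipped, a zinc finger repressor). *hry* had 47.4, 66.3, 103 and 62.1 CPM in controls and 26.8, 34.7 and 23.5 CPM in HP1-KD libraries, a log2 fold change of −1.29 ± 0.27 (edgeR adjusted p = 0.0304). *odd* had 41.1, 59.7, 88.6 and 55.4 CPM in controls and 22.1, 32.5 and 21.6 CPM in HP1-KD libraries, a log2 fold change of −1.27 ± 0.28 (edgeR adjusted p = 0.0346). Neither gene's groups overlapped, and both were also called without control replicate 3, in which they were highest. No pair-rule gene was called by limma-voom or without HP1-KD replicate 1, and DESeq2 called 3 (9.8% of all genes). *opa*, a late pair-rule gene with a Zic-type zinc finger, had the highest mean of the 9 over all libraries through control replicate 3, at 179 CPM. The other controls had 20.6 to 51.9 CPM, below *hry* and *odd* in each, and its groups overlapped.

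Control replicate 3 held the controls' lowest *hb* and *tll* and their highest *kni*, *knrl* and *hkb*. Of the listed maternal RNAs that are cleared around genome activation, all but *png* were lower in it than in any other control. *png* was at 1.67 CPM in it against 1.47 to 2.40 CPM in the other controls, and *mtrm* at 4.59 against 5.10 to 12.0 CPM. *smg* (encoding Smaug, a translational repressor) was at 325 CPM against 813 to 1393 CPM in the other controls and 1202 to 1411 CPM in HP1-KD libraries. The cellularization genes went different ways in control replicate 3. *nullo* was at 8.48 CPM against 27.4 to 48.3 CPM in the other controls, and *bnk* at 45.3 against 102 to 168 CPM. *Sry-alpha* was highest there, at 754 against 591 to 736 CPM, and *slam* was close to the others, at 1612 against 1636 to 1763 CPM. The part of these RNAs in the gap gene values was not tested. Over the 6 maternal RNAs no gene was called by edgeR, and their median log2 fold change was 0.65. An unadjusted p under 0.05 was found for 2 (28.8% of all genes, either direction), and DESeq2 called 1 (18.6%) and limma-voom 0 (6.99%). Without control replicate 3 the median was 0.41, *twe* was negative (−0.10) and *plu*, a regulator of the early nuclear cycles, was called higher (0.61, edgeR adjusted p = 0.0192). The cellularization genes (4 tested) gave no edgeR call, at a median of −0.33. Of the 4, 2 had an unadjusted p under 0.05 (28.8% of all genes), and DESeq2 (18.6%) and limma-voom (6.99%) called 1 each. *slam*, which builds the furrows of cellularization and was the most abundant, had 1612 to 1763 CPM in controls and 1030, 1399 and 871 CPM in HP1-KD libraries (log2 fold change −0.61 ± 0.18, edgeR adjusted p = 0.0763).

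**Figure D4:**
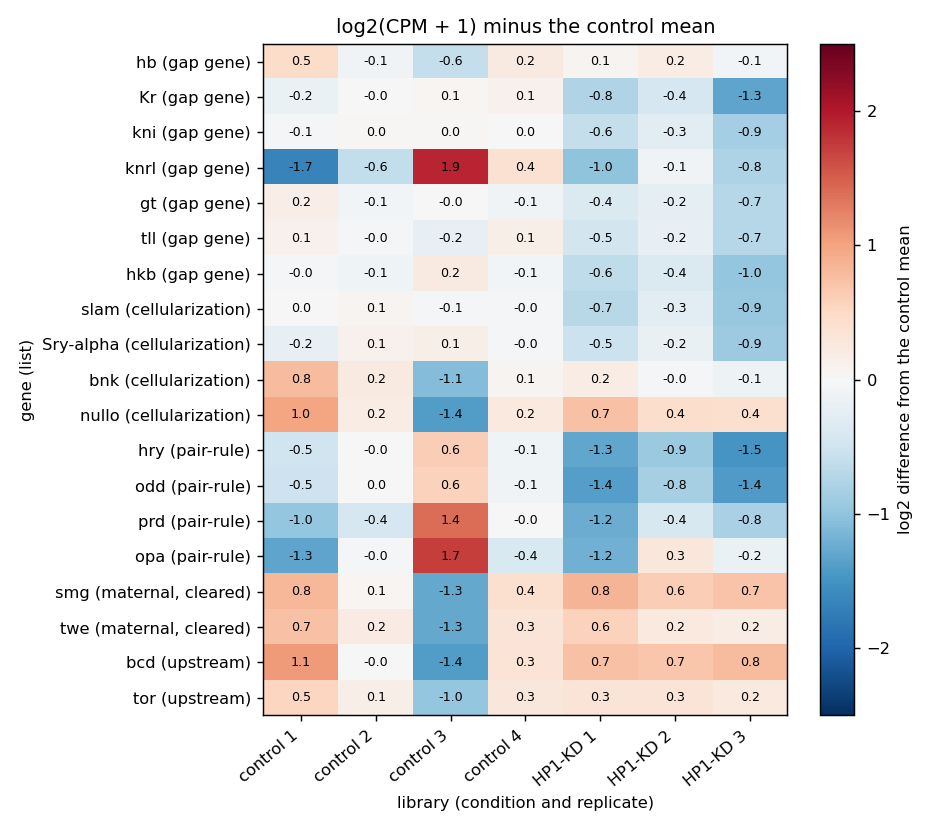
Log2(CPM + 1) minus the control mean, as a heat map with the value printed in each cell, for the 7 gap genes and 12 genes of other lists that were picked after their values were seen (rows) in 7 libraries (columns). *Kr*, *kni*, *gt*, *tll*, *hkb*, *slam* and *Sry-alpha* stay within 0.3 of the mean in every control and below it in every HP1-KD library. In control replicate 3, *knrl*, *prd* and *opa* are highest, and *nullo*, *bcd*, *twe* and *smg* lowest.

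RNAs that mark other cells or stages were also examined. Of 5 pole cell RNAs tested, none was called by any tool, and 1 had an unadjusted p under 0.05 (28.8% of all genes). The most abundant was *osk*, at 147 ± 70.4 CPM in controls and 168 ± 32.5 CPM in HP1-KD embryos. The 3 X-counting genes, early zygotic sex determination genes on the X that include *run* at 41.6 ± 18.9 and 32.6 ± 5.00 CPM, gave no call by any tool and none at an unadjusted p under 0.05. None of 12 follicle cell genes reached the filter for testing. Summed, they made up 0.343 to 0.875 CPM in controls and 0.717 to 321 CPM in HP1-KD libraries, with 114 CPM of *Yp1*, 84.9 of *Yp2* and 117 of *Yp3* in HP1-KD replicate 1 and 1 gene of the list, *Vm26Ab*, at 0 throughout. The other genes of the list reached at most 1.77 CPM (*Cp38*) in HP1-KD replicate 1, so the sum there rests on the yolk protein genes. The 6 genes of later differentiation, the highest being the muscle gene *Mlc2*, summed to 0.454 to 0.859 CPM in controls and 0.502 to 1.52 CPM in HP1-KD libraries. Without HP1-KD replicate 1, the log2 fold changes of the gap genes were −0.78 for *Kr*, −0.52 for *kni*, −0.45 for *gt*, −0.43 for *tll*, −0.63 for *hkb*, −1.03 for *knrl* and 0.03 for *hb*, and none was called (edgeR adjusted p from 0.162 to 0.962).

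The tested genes that start nearest to each gap gene on either side were compared with it. Of these 14 genes, 2 were called (8.59% of all tested genes were), both next to *Kr* and both higher in HP1-KD. *CG9380* (FBgn0035094, 2R, 25183628 to 25255318, minus strand), in whose span *Kr* lies, was at 5.38, 9.70, 5.82 and 3.37 CPM in controls and at 16.97, 15.94 and 16.28 CPM in HP1-KD libraries. *CG30428* (FBgn0050428, 25251927 to 25254535, plus strand), which starts 20532 nt beyond the end of *Kr*, was at 0.943, 2.14, 4.01 and 2.65 CPM in controls and at 8.56, 9.42 and 7.17 CPM in HP1-KD libraries. Both were thus higher in every HP1-KD library than in any control. *Kr* was lower in every HP1-KD library than in any control, as were 15.1% of all genes. The share of all genes higher in every HP1-KD library was not computed.

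The log2 fold change was 1.43 ± 0.32 for *CG9380* (edgeR adjusted p = 0.0361) and 1.76 ± 0.42 for *CG30428* (adjusted p = 0.0411). With a library left out in turn the values ran from 1.22 to 1.74 and from 1.52 to 2.10, and each gene was called in 2 of 7 fits. Under scaling by total count alone the log2 fold changes were 0.26 and 0.63, against −1.15 for the median gene, and neither was called. The strand setting of the counting is not given in the sources used here, so unspliced *CG9380* reads that cross *Kr* cannot be told apart from reads of *Kr* itself. *CG9380* and *CG30428* overlap in span on opposite strands, with no overlap of exons. The other 12 neighbours were not called by edgeR (adjusted p from 0.167 to 0.908), DESeq2 or limma-voom. Of them, 1 had an unadjusted p under 0.05 (28.8% of all genes, either direction).

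**Figure D5:**
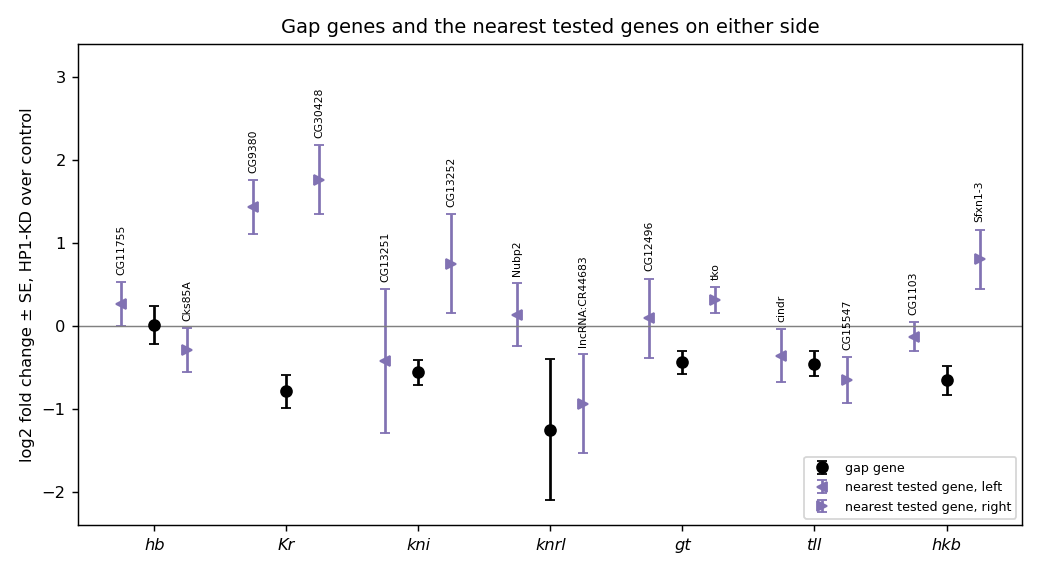
Log2 fold change ± SE, HP1-KD over control, of each gap gene (black circles) and of the nearest tested gene on its left and right side (purple triangles, named). Only the neighbours of *Kr*, at 1.43 and 1.76, were called, and *Kr* itself lies at −0.79.

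Genes with the most similar course over the 7 libraries were found by the root mean square difference of centred log2(CPM + 1) profiles among 8007 other tested genes. For *kni* they were *MRG15*, a chromodomain gene (0.0617), and *slam* (0.0663). For *hkb* they were *Ppa*, which encodes an F-box protein (0.0720), and *lncRNA:CR42651* (0.0913). *MRG15* and *Ppa* were themselves called lower (log2 fold changes −0.57 and −0.72, edgeR adjusted p = 0.0434 and 0.0477), as were 4.9% of all genes. Both were picked for their likeness over the same libraries, which includes the difference between the groups. Their calls are therefore no separate evidence on the gap genes. For *gt* the closest were *CG15020* (0.0581) and *snoRNA:Psi28S-1192b* (0.0649), and for *tll* *Kmn1*, a kinetochore gene (0.0661), and *lncRNA:CR45531* (0.0716). *Kr* was closest to *asRNA:CR45270* (0.0809) and *asRNA:CR43957* (0.109), *hb* to *CG4911* (0.0749) and *Adck5* (0.0874), and *knrl* to *beat-IIIc* (0.201) and *nkd*, a Wnt pathway gene (0.204). The distance of *knrl* to its nearest gene was thus the largest of the 7. Several of these genes had a mean under 5 CPM, where the added 1 shrinks differences, and reads of antisense RNAs cannot be told apart from those of their partners without the strand setting.

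Some gap genes also ranked near each other by this measure. *kni* was the 7th closest gene to *hkb* (0.104), and *hkb* the 14th closest to *kni*. *hkb* and *kni* ranked 22 and 27 for *Kr*, and *kni* and *tll* ranked 58 and 61 for *gt*. Other ranks among these 5 genes varied widely, from *gt* at 59 for *kni* and at 64 for *tll* to *Kr* at 1471 for *tll* and at 1752 for *gt*. The closest gap gene to *hb* was *tll* at rank 2314, and the closest to *knrl* was *hkb* at rank 1855. The measure is a description over libraries that share their depth and scaling with all other genes.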

How the data were processed

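Total RNA of stage 5 embryos was sequenced in 4 control and 3 HP1-KD libraries. The table that the authors deposited holds estimated counts for each gene, which come in steps of 0.5 and are not normalized. STAR and dm6 are named in the submitters' processing notes, and their versions, the counting program and its strand setting are not given in the sources used here. Positions and exon lengths came from the Ensembl release 115 annotation, which held 99.22% of the identifiers. Sequences were not used here.

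The values were rounded to whole numbers, filtered with filterByExpr and scaled with TMM factors, and the groups were compared with condition as the sole factor by edgeR's quasi-likelihood F-test (edgeR 4.0.16, R 4.3.3). Values with ± a log2 fold change are standard errors, other ± values SD. The test was checked on simulated data. Alternatives used DESeq2 1.42.0, limma-voom (limma 3.58.1), other scalings and filters, the replicate number as a block, and each library left out. The pseudocount on log2 profiles was 1. Ratios were compared over all 35 arrangements of the libraries.

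The genes named are the 7 gap genes, list members that were called or most abundant, the 2 closest profiles and the nearest tested genes on either side. *bcd*, *cad*, *Trl*, *cic*, *Stat92E*, *twe*, *plu*, *png*, *mtrm*, *nullo*, *bnk*, *Sry-alpha*, *Yp1*, *Yp2*, *Cp38* and *Vm26Ab* were added after their values were seen. The members and lists were chosen with earlier results of these data known.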

Additional observations from a re-analysis of the deposited data

How the results depend on the processing

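Libraries with 3272009.5 to 5443432 counts outside ribosomal RNA and groups of 4 and 3 limit what could be called. Genes called numbered 688, and 1488 with DESeq2, 439 with at least 10 counts in every library, 404 among protein-coding genes, 1095 under total count alone (1064 lower), and 181 to 1212 with a library left out, the highest without control replicate 3. Gap genes called lower numbered 0, and 4 with DESeq2, 1 each with limma-voom, no filter, ribosomal RNA left out and the size factors of DESeq2, 2 under total count alone, and 0 to 4 with a library left out. Of all genes tested, 392 of 8008 were called lower, 785 of 8008 with DESeq2 and 328 of 8008 with limma-voom. Without a filter 314 of 13177 were, without ribosomal RNA 419 of 7817, and with the size factors of DESeq2 401 of 8008. Under total count 1064 of 8008 were called lower, and 130 to 637 genes with a library left out. *Kr* was past the threshold at −0.79 with DESeq2 and with its size factors, −0.83 with limma-voom, −0.81 without a filter, −0.80 without ribosomal RNA and −1.77 under total count. DESeq2 also called *kni* (−0.55), *gt* (−0.43) and *hkb* (−0.65), and total count called *knrl* (−2.26). The sign of *hb* turned to −0.021 with at least 10 counts, −0.0075 without a filter, −1.01 under total count and −0.14 without control replicate 3 and HP1-KD replicate 1, where *knrl* was at 0.026. The median gene was itself at −1.15 under total count and at −0.16 without a filter, and relative to it *hb* was at 0.15 in both. Relative to the median gene under total count, *Kr* was at −0.62 and *knrl* at −1.10. Left-out libraries gave −0.16 to 0.18 for *hb*, −1.02 to −0.58 for *Kr*, −0.73 to −0.43 for *kni*, −1.63 to −0.18 for *knrl*, −0.54 to −0.31 for *gt*, −0.59 to −0.34 for *tll*, −0.82 to −0.51 for *hkb*, and −0.63 to 0.67 for the log2 ratio of *kni* over *knrl*. The cause was not tested. Same-numbered libraries deviated together at r = 0.46, −0.11 and 0.06, and others at −0.45 to 0.33. So few correlations, the highest of them in a same-numbered pair, cannot settle whether the numbers pair the libraries. With the replicate block 96 genes and 0 gap genes were called, *Kr* was at −0.79 (edgeR adjusted p = 0.181) and *kni* over *knrl* at −0.11.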
